A study of Mus musculus with 5 samples.

Results

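The acinar cells of fresh mouse submandibular salivary gland were described in 1 scRNA-seq library of freshly dissociated tissue. Cell barcodes were taken as members when they held at least 200 detected genes, at most 10% of their unique molecular identifiers (UMIs) in mitochondrial genes, and a UMI of at least 2 of 5 acinar markers (Aqp5, Bhlha15, Slc12a2, Chrm3 and Clcn3). Of the 13547 barcodes of the tissue library, 1552 met the limits on genes and mitochondrial UMIs, and 287 of them met the marker rule, which was 18.5% (95% Clopper-Pearson interval 16.6 to 20.5). The other 1265 barcodes within the same limits served as the comparison. The whole series held 72788 barcodes in 5 libraries.

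The tissue library came from glands of untreated female C57BL/6 mice of 8 to 12 weeks, and the number of animals behind it was not given in the sources used here. The other libraries came from salivary gland organoids (mSGOs), which are grown in Matrigel from dissociated cells of submandibular glands and were made from 4 animals. They were untreated 7-day mSGOs, 7-day mSGOs that received 7 Gy of photons or 7 Gy of protons on day 5, and untreated 11-day mSGOs. The study's methods name only female C57BL/6 mice. An age of 8 to 12 weeks was listed for the 7-day libraries and none for the 11-day library. The file headers of the 11-day library name another software version than those of the other libraries. Sorting kept 45000 propidium iodide-negative cells per library after dissociation, and these were loaded for droplet-based 3′ counting. Each group held 1 library, so no difference between groups or barcodes was tested, and every interval below is an exact 95% interval that covers counting error only. A UMI count is a count of captured RNA molecules, and fewer cells of a kind, less RNA per cell and RNA taken up from the suspension cannot be told apart in summed levels.

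Acinar cells are the secretory cells of the gland. They make mucins and other saliva proteins on the rough endoplasmic reticulum (ER), store them in granules and release them after nervous stimulation, while ion transporters and a water channel move the fluid of saliva. In the rodent submandibular gland they are seromucous cells, and the ducts, with their kallikrein-filled granular part, modify the fluid on its way out. Among the 5 rule markers, Aqp5 encodes the apical water channel, Slc12a2 the basolateral cotransporter that loads the cell with chloride, Chrm3 a muscarinic acetylcholine receptor, Clcn3 a chloride/proton exchanger of intracellular membranes, and Bhlha15 (MIST1) a basic helix-loop-helix transcription factor of mature secretory cells.

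Factors of the MIST1 family bind E-boxes, whose general pattern is CANNTG, so the windows of 250 bases upstream of the gene start are shown for a pair of rule markers and for the secretory products on which the results below turn. Sequences and positions are RefSeq's for GRCm38.p6, each window is written in the direction of the gene, and capitals mark CANNTG, a pattern that reads the same on both strands.
Aqp5, plus strand of chr15:99590778-99591027: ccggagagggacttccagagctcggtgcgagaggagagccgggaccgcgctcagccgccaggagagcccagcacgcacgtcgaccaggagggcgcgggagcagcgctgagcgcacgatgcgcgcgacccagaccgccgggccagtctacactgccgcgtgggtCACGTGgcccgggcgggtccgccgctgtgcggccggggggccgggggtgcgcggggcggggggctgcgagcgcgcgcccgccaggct
Bhlha15, plus strand of chr5:144190036-144190285: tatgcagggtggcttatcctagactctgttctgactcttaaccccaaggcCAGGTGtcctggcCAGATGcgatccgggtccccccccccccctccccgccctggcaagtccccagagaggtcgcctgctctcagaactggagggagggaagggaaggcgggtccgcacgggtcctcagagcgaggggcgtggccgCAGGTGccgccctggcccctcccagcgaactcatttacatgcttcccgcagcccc
Mucl2, minus strand of chr15:103899313-103899562: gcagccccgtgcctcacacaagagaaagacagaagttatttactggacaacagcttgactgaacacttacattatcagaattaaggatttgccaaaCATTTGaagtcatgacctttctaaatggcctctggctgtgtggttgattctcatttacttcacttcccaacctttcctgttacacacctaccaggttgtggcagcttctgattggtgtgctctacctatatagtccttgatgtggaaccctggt
Smgc, plus strand of chr15:91838078-91838327: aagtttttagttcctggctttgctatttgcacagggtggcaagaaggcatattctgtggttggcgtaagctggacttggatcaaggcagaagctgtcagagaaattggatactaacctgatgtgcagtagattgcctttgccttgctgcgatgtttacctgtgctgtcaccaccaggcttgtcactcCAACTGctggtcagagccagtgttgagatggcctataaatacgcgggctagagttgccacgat
The Bhlha15 window held 3 matches, and the Aqp5, Mucl2 and Smgc windows held 1 each. At least 1 match was present in 66.2% of the 32851 windows of the same length, whose median was 1. The narrower forms CAGCTG (13% of all windows) and CATATG (3.46%) were in none of these 4 windows. These matches describe the letters of the windows and carry no information on binding.

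The 287 members were deeper than the barcodes around them. They held a median of 4521 UMIs and 613 detected genes, against 2307 UMIs and 272 genes in the other barcodes, and they took 50.2% of all UMIs within the limits. The range ran from 1143 to 219277 UMIs, and the 10 deepest members, each with at least 47029 UMIs, held 35.0% of the members' UMIs. Below the limit on genes lay 11597 barcodes of the library, 10879 of them within the mitochondrial limit, with a median of 899 UMIs. These are called barcodes under 200 genes in what follows and show what was counted where little besides the most abundant RNAs was captured. Of the tissue barcodes, 33, 72, 64 and 51 had the same sequence as a barcode of the untreated 7-day, photon, proton and 11-day libraries, and 2, 1, 1 and 1 of the members were among them.

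**Figure D1:**
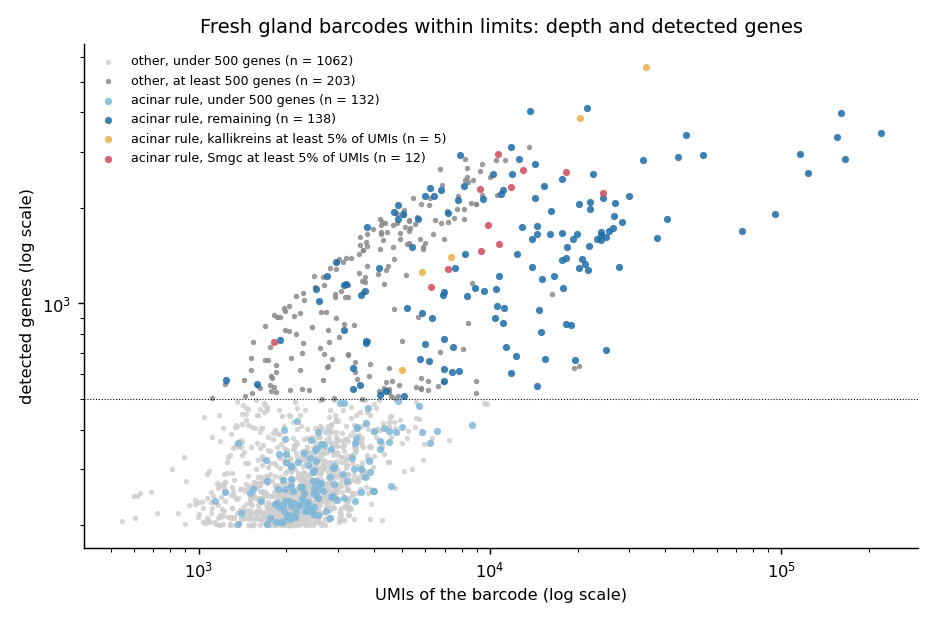
UMIs (x axis, log scale) and detected genes (y axis, log scale) of the 1552 tissue barcodes within the limits, 1 point per barcode, with the dotted line at 500 genes. The 287 barcodes of the acinar rule reach 219277 UMIs, while 132 of them lie under 500 genes among the 1062 other barcodes of that size.

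Of the barcodes within the limits, 735 held none of the 5 markers, 530 held 1, 182 held 2, 62 held 3, 32 held 4 and 11 held all 5. The barcodes just outside the rule were thus those 530, and those just inside it were the 182. Among the members, a Slc12a2 UMI was present in 247 (86.1%), an Aqp5 UMI in 231 (80.5%), a Bhlha15 UMI in 134 (46.7%), a Clcn3 UMI in 86 (29.97%) and a Chrm3 UMI in 35 (12.2%). The rule was therefore carried mainly by Aqp5 with Slc12a2: that pair alone was held by 103 members, and the same pair with Bhlha15 by 37. Aqp5 with Bhlha15 alone was held by 28 members.

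Marker UMIs were also found in barcodes that carried genes of other cell types. Barcodes were put in an immune, endothelial or duct class when they held a UMI of at least 2 of 6 markers of that class, and these classes could overlap with the acinar rule. In the 256 immune-class barcodes (median 2774 UMIs), an Aqp5 UMI was present in 75 (29.3%, 23.8 to 35.3), a Slc12a2 UMI in 52 (20.3%, 15.6 to 25.8) and a Bhlha15 UMI in 20 (7.81%, 4.84 to 11.8). Of the members, 34 were in the immune class, 25 in the endothelial class and 58 in the duct class, and 190 were in none of the 3. Among the other barcodes, 868 (68.6%) were in no class. The 256 immune-class barcodes include those 34 members, and RNA from the suspension and RNA of acinar cells cannot be told apart in them. The members' higher shares came with a higher depth and with the rule itself.

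The share of barcodes that met the rule was higher in deeper barcodes. Between 2000 and 3000 UMIs, 71 of 617 barcodes within the limits met it (11.5%, 9.10 to 14.3), against 14 of 167 barcodes under 200 genes (8.38%, 4.66 to 13.7), so the intervals overlapped. At 5000 UMIs or more it was 136 of 220 (61.8%, 55.1 to 68.3). After random thinning of the barcodes to a fixed 1000 UMIs, which left out 17 shallower ones within the limits, 57 of 1535 met the rule (3.71%, 2.82 to 4.79), against 72 of 3303 barcodes under 200 genes (2.18%, 1.71 to 2.74; 7576 were too shallow). Over 10 draws of the thinning the count within the limits lay between 51 and 67. The thinned share was 7.26% (4.8 to 10.5) in the 358 barcodes with at least 500 genes, 1.18% (0.243 to 3.40) in the immune class and 7.38% (3.74 to 12.8) in the duct class. At equal depth the rule thus held more often in the barcodes within the limits than in those under 200 genes, and the interval of the immune class overlapped that of the latter.

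To give each marker a value that the rule did not fix, its level was read in barcodes chosen by at least 2 of the other 4 markers. Levels are CPM, the UMI counts of the summed barcodes scaled to 1000000 UMIs. Bhlha15 was at 64.6 CPM (56.2 to 73.9) in the 242 barcodes so chosen and at 25.03 CPM (20.1 to 30.8) in the 1310 without. Slc12a2 was at 275 CPM (256 to 295) against 146 CPM (134 to 158), and Aqp5 at 256 CPM (238 to 276) against 162 CPM (149 to 174). Clcn3 was at 31.9 CPM (26.1 to 38.6) against 17.6 CPM (13.5 to 22.5). For these 4 markers the intervals did not overlap. Chrm3, counted in 34 UMIs, was at 9.99 CPM (6.92 to 14.0) against 4.6 CPM (2.63 to 7.48), and its intervals overlapped. In the barcodes under 200 genes the markers were at 117 CPM (Aqp5), 21.2 CPM (Bhlha15), 143 CPM (Slc12a2), 1.84 CPM (Chrm3) and 9.96 CPM (Clcn3). After thinning to 1000 UMIs, Bhlha15 (78.5 against 27.1 CPM), Slc12a2 (378 against 124 CPM) and Clcn3 (46.5 against 11.0 CPM) kept intervals that did not overlap. For Aqp5 (196 CPM, 131 to 281, against 140 CPM, 121 to 161) and Chrm3 (3 UMIs on each side) the intervals overlapped.

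**Figure D2:**
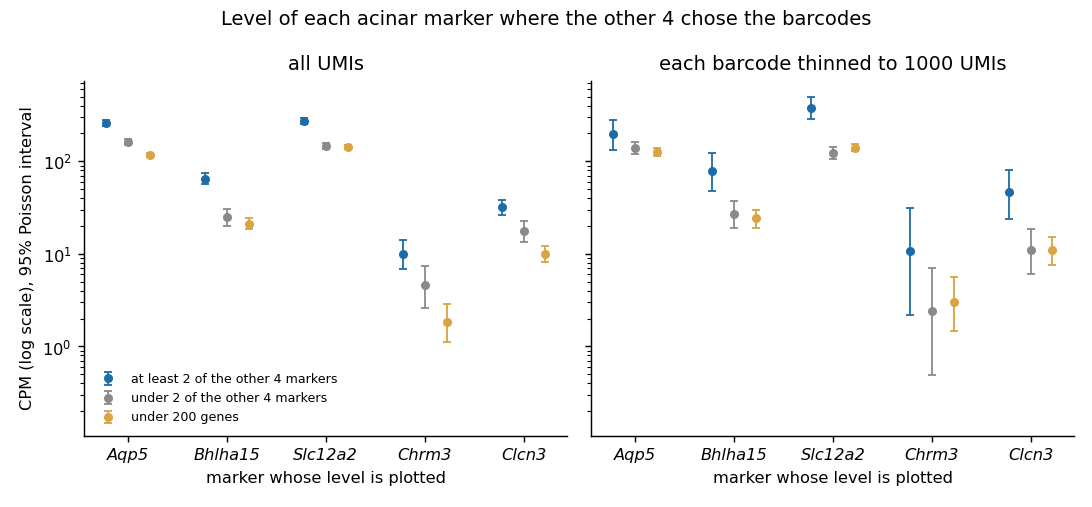
Level of each rule marker (CPM, log scale, bars are exact 95% Poisson intervals) in barcodes with at least 2 of the other 4 markers, in barcodes with fewer, and in barcodes under 200 genes, from all UMIs (left) and after thinning to 1000 UMIs (right). Bhlha15 is at 64.6 CPM beside the other markers against 25.03 CPM without them, while the thinned Aqp5 intervals overlap.

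The 287 members were not 1 kind of barcode. A split at 500 detected genes, chosen after the values were seen, gave 155 members with at least 500 genes, which held 89.4% of the members' UMIs, and 132 with fewer. Malat1, a nuclear-retained RNA, made up at least 0.5% of the UMIs in 94 of the 155 (60.6%) and in 3 of the 132 (2.27%). Of the 132, 120 carried 2 markers and no more. Their median Mucl2 share was 60.3% of UMIs, beside 58.4% in barcodes under 200 genes and 59.2% in the other barcodes with fewer than 500 genes. Genes outside the rule, named after their values were seen, gave mixed results against those other barcodes. Lrrc26, an auxiliary subunit of calcium-activated potassium channels, was at 118 CPM (85.3 to 159) against 66.1 CPM (56.3 to 77.0), without overlap of the intervals. Kcnn4, a calcium-activated potassium channel, was at 118 CPM (85.3 to 159) against 79.8 CPM (69.0 to 91.7), and these intervals overlapped. For the transcription factor gene Etv1 (21.9 CPM, 9.47 to 43.2, against 10.9 CPM, 7.17 to 15.8) they also overlapped. So did those of Creb3l1 (43.9 CPM, 25.1 to 71.2, against 25.4 CPM, 19.5 to 32.5) and Xbp1 (49.4 against 47.1 CPM). The summed level of macrophage genes was 606 CPM against 1174 CPM.

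A further description of the 155 deeper members used shares of Smgc, of the kallikreins and of Mucl2, again chosen after the values were seen. Smgc made up at least 5% of UMIs in 12 members, kallikreins at least 5% in 5, and 138 remained. Mucl2 encodes a mucin-like secreted protein, and of the 138, 106 had it at 30% of their UMIs or more and 32 had less.

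The 106 Mucl2-rich members carried several secretory cell genes outside the rule, at a median of 15402 UMIs and 1320 detected genes. Aqp5 was at 290 CPM and present in 92% of them, and Bhlha15 at 73.7 CPM and present in 75%. Etv1, an ETS-family transcription factor, was at 81.2 CPM and present in 64%, and Creb3l1, an ER-bound transcription factor of secretory cells, was at 65.1 CPM and present in 61%. Kcnn4 was at 161 CPM and present in 82%, and Srpr, the signal recognition particle receptor, was at 286 CPM and present in 89%. None of Etv1, Creb3l1, Kcnn4 and Srpr was used by the rule, although all were counted in the barcodes it chose. The 62 other barcodes with at least 500 genes and at least 30% Mucl2 held Etv1 at 35.3 CPM, Creb3l1 at 16 CPM, Kcnn4 at 112 CPM and Srpr at 67.4 CPM, at a median of 4322 UMIs. The intervals of the 106 and the 62 did not overlap for Etv1, Creb3l1 and Srpr. They overlapped for Kcnn4 (146 to 177 against 78.2 to 156 CPM), Xbp1 (88.7 against 77.0 CPM) and Lrrc26 (103 against 70.6 CPM). The chloride channel gene Ano1 was at 16.5 CPM in the 106 and 19.2 CPM in the 62. In the 106, the duct keratin Krt7 was at 6.36 CPM, the macrophage gene C1qa at 28.8 CPM and the endothelial gene Plvap at 16.1 CPM, while Klk1, the abundant duct kallikrein, was at 1739 CPM. At this depth 40 of the 106 were in at least 1 of the 3 classes, 29 of them in the duct class and 17 in the immune or endothelial class. Of the 62 other barcodes, 38 were in at least 1 class and 29 in the immune or endothelial class. C1qa was at 385 CPM and Plvap at 138 CPM in those 62, so their levels include other cell types.

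The 32 members with less Mucl2 held genes of other classes beside acinar genes. They held a median of 5829 UMIs, and 29 of them were in at least 1 of the immune, endothelial and duct classes, 19 of them in the immune or endothelial class. C1qa was at 1153 CPM, Plvap at 672 CPM and Krt7 at 221 CPM. Aqp5 was at 62.4 CPM and present in 28%, and Creb3l1 at 9.60 CPM and present in 6.25%. They met the rule mainly through Slc12a2, at 370 CPM and present in 97%, and Clcn3, at 158 CPM and present in 66%, which are not restricted to acinar cells. Etv1 was at 91.2 CPM (54.9 to 142) but present in 19%, Xbp1, a factor of the unfolded protein response, at 120 CPM, Lrrc26 at 91.2 CPM and Atp2a3, the calcium pump of the ER, at 91.2 CPM. Their levels in the 106 were 81.2, 88.7, 103 and 107 CPM. Ano1, the apical calcium-activated chloride channel, was at 86.4 CPM (51.2 to 137) against 16.5 CPM (12.0 to 22.1). The markers thus did not settle the label for these 32 barcodes.

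The 11 members with all 5 markers stood at the other end. They held 6944 to 160048 UMIs, with a median of 17620, and none was in the immune or endothelial class, although 5 were in the duct class. C1qa and Plvap were each at 0 of 394307 UMIs. Kcnn4 was present in 11 of 11, Srpr in 11 of 11, and Etv1, Creb3l1, Tram1 and Gfpt1 in 10 of 11 each. Atp2a3 was also present in 10 of 11, and Smgc was at 107 CPM, below the 1583 CPM of the Mucl2-rich members and the 1453 CPM of the Mucl2-rich barcodes outside the rule.

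Smgc, which encodes submandibular gland protein C, a mucin-like product, was concentrated in few members. RefSeq lists Muc19 as a synonym of Smgc and the gene list has no entry for Muc19, so the transcripts of both names could not be told apart. Smgc made up 6.23 to 49.8% of the UMIs of the 12 Smgc-rich members, and the highest member below was at 4.82%. None of the 1265 other barcodes passed 4.37%, while barcodes under 200 genes reached 8.75%. The 12 held 34593 of the members' 39863 Smgc UMIs, and the barcode with most gave 22.8% of them. Mucl2 was present in all 12 but at a median of 15.8% of UMIs, against 51.4% in the 138 remaining members.

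**Figure D3:**
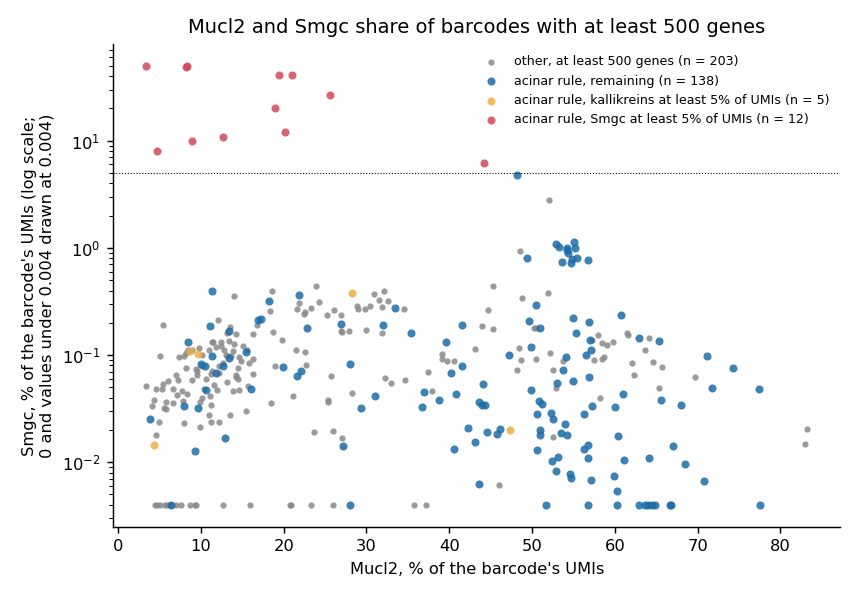
Mucl2 share (x axis) and Smgc share (y axis, log scale, zeros and values under 0.004% drawn at 0.004%) of UMIs in each tissue barcode with at least 500 genes. The 12 members above the dotted line at 5% reach 49.8% Smgc, and 11 of the 12 lie at or under 25.7% Mucl2.

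Acinar genes varied among the Smgc-rich barcodes. Slc12a2 was present in 12 of 12, at 905 CPM (750 to 1082), and Aqp5 in 10 of 12, at 369 CPM (273 to 488). Bhlha15 was present in 3 of 12, at 37.7 CPM (12.2 to 88.0), Etv1 in 2 of 12, at 52.8 CPM (21.2 to 109), and Kcnn4 in 3 of 12, at 75.4 CPM. The Bhlha15 and Etv1 intervals overlapped those of the 138 remaining members, at 61.8 to 81.6 CPM and 71.8 to 93.1 CPM. Tram1, which encodes a protein of the ER translocon, was present in 11 of 12, at 354 CPM against 134 CPM in the 138, Srpr in 11 of 12, at 234 CPM against 278 CPM, and Atp2a3 in 8 of 12, at 188 CPM against 106 CPM. Lrrc26 was present in 11 of 12, at 324 CPM against 102 CPM in the 138 remaining members. Fam13a was present in 8 of 12, at 927 CPM against 30.2 CPM. Prlr, the prolactin receptor, was at 400 CPM against 15.6 CPM, and Sox9, a transcription factor of salivary progenitor and distal epithelial cells, at 392 CPM against 38.9 CPM, each present in 11 of 12. Fgg, the fibrinogen gamma chain, was at 467 CPM against 1.74 CPM and was present in 5 of 12. Among duct genes, Krt7 was at 45.2 CPM against 21.9 CPM in the remaining members, with overlapping intervals. Krt18 was at 1485 against 214 CPM and Epcam at 829 against 150 CPM, while Krt19 had 0 UMIs. The summed duct list was at 3114 CPM against 676 CPM, and Klk1 at 550 CPM, below its 1767 CPM in the remaining members. The duct class held 8 of the 12, so the markers did not settle the label for these 12 barcodes. Plvap was at 0 of 132629 UMIs and C1qa at 196 CPM.

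The 5 kallikrein-rich members held 45.2, 26.1, 19.8, 17.8 and 13.8% of their UMIs in kallikreins, at 7366, 34392, 5834, 5002 and 20431 UMIs. Slc12a2 was present in all 5, Aqp5 in 2 with 1 UMI each and Bhlha15 in 2. Tfcp2l1, a transcription factor of duct cells, was present in 4 of 5, and Krt7 in 5 of 5. The duct class held 4 of the 5, so the acinar label was not settled for these barcodes. Above the same limit lay 62 other barcodes, the highest at 35.1%.

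Secretory RNA was present in every kind of tissue barcode, and its make-up differed. The list of acinar secretory products took a median of 75.5% of UMIs in members and 74.8% in the other barcodes, but 72.6% and 21.4% in those with at least 500 genes. Each product was expressed as a share of the UMIs of the whole list of acinar secretory products, of which 24 of 26 genes had an entry in the gene list. Mucl2 was 77.2% of that sum in barcodes under 200 genes, 78.8% in the immune class without members, 78.0% in the endothelial class, 77.6% in the duct class and 78.4% in the 132 members under 500 genes. It was 70.3% in the 138 remaining members. Prol1, which encodes a proline-rich saliva protein, was 4.79% there against 2.19 to 3.04% in those 5 sets, and Car6, the secreted carbonic anhydrase, was 3.04% against 1.57 to 2.29%. The secretoglobin Scgb1b27 was 12.4% against 9.53 to 9.94%. These sums are weighted by the deepest barcodes. In the median barcode of the 138, Prol1 was 2.12% and Car6 1.79% of all UMIs, beside 2.27 and 1.72% in barcodes under 200 genes. In the Smgc-rich barcodes Smgc was 49.1% of the sum and Mucl2 35.8%.

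**Figure D4:**
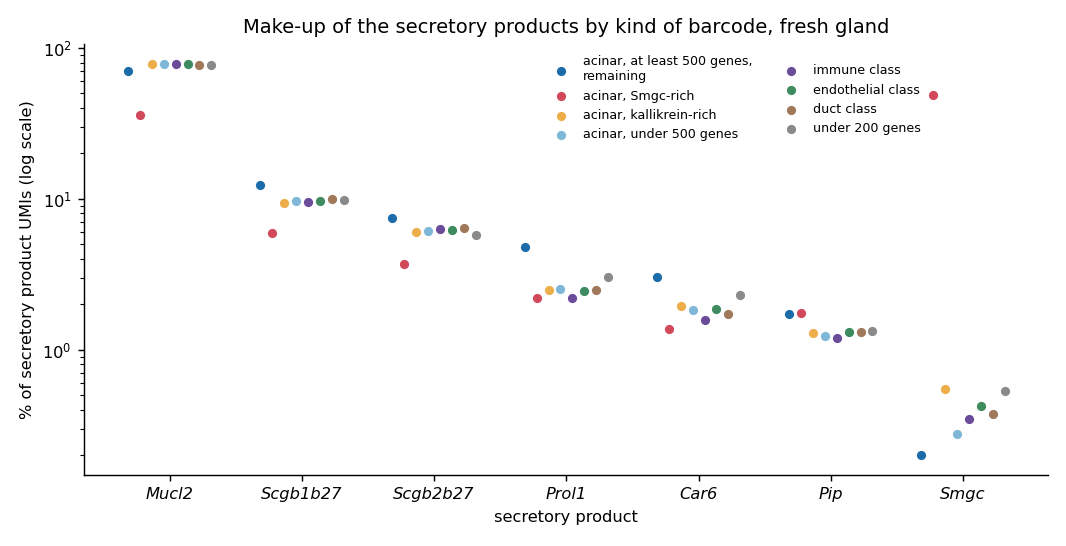
Share of 7 products in the UMIs of the secretory product list (y axis, log scale) for 8 kinds of tissue barcode, 1 point per kind. Prol1, Car6 and Scgb1b27 are higher and Mucl2 lower in the 138 remaining members than in the immune, endothelial and duct classes and the barcodes under 200 genes, and Smgc is at 49.1% in the Smgc-rich members.

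Across all genes, the members were compared with the other 1265 barcodes by the ratio of CPM (log2, pseudocount of 1 CPM) in the 4918 genes with at least 50 UMIs over both, the rule markers left out. Of these, 148 (3.01%) were at least 2-fold higher and 856 (17.4%) at least 2-fold lower in the members. The members were chosen from the same counts, so these values describe them and nothing was read from the shares. The median of all genes was −0.39, and lists are read against that value. The split depended on scaling: genes at least 2-fold higher were 14.7% of those past 2-fold as reported, 61.8% when secretory products and kallikreins were left out of the totals (median 0.12), 49.4% under median-of-ratios scaling (median near 0) and 72.2% for the mean of the barcodes' own CPM (median 0.12). Ratios near 0 therefore have no fixed sign. Within barcodes of at least 500 genes, 82 of 4040 genes (2.03%) were at least 2-fold higher and 2886 (71.4%) lower, with a median of −1.44.

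The highest ratio was that of Fam13a, at 62.3 CPM (54.3 to 71.2) in members and 7.00 CPM (4.49 to 10.4) in others, a log2 ratio of 2.98. Without the Smgc-rich members it was 1.84. Smgc followed at 2.48 and fell to −0.38 without those 12, so its place rested on them. Etv1 was at 73.0 CPM (64.3 to 82.6) against 12.8 CPM, a log2 ratio of 2.42 that was 2.44 without the 12 and 2.08 in barcodes of at least 500 genes. Srpr (1.58), Tram1 (1.40) and Gfpt1 (1.46), the entry enzyme of the hexosamine pathway that feeds glycosylation, were also higher, and stayed at 1.28, 1.14 and 1.40 in barcodes of at least 500 genes. The tight junction gene Cgnl1 (1.77) was at 0.90 there, the nuclear protein gene Auts2 (1.69) at 0.50 and the splicing factor gene Srsf10 (1.46) at 0.45. Kcnq1ot1, a nuclear noncoding RNA, went from 1.41 to −0.09, so its place among the highest was not kept there. The rule markers, whose ratios the rule fixes, were at 2.76 (Bhlha15), 2.30 (Clcn3), 1.98 (Chrm3), 1.63 (Slc12a2) and 1.34 (Aqp5). The study names Alcam, a cell adhesion molecule, with Chrm3 and Clcn3 for pro-acinar cells. Alcam was at 14.8 CPM against 12.5 CPM, a log2 ratio of 0.22 (−0.38 to 0.86).

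The lowest ratios belonged to genes of blood cells and to 1 family of saliva proteins. S100a8 and S100a9, granule proteins of neutrophils, had 0 UMIs in the members against 293 and 312, so they were at least 98.3-fold and 105-fold lower at a floor of 3 UMIs over the members. Retnlg, Gzmc, Ccl5, Lyz2 and Cxcl2, products of neutrophils, killer lymphocytes and macrophages, were at log2 ratios of −5.56, −4.79, −4.55, −2.90 and −2.83. Dcpp1, Dcpp2 and Dcpp3, demilune cell and parotid proteins, were at −2.98, −2.81 and −2.99, with 25.8, 21.7 and 35.4 CPM in the members against 207, 163 and 304 CPM in barcodes under 200 genes. Their counts may be split among near-identical copies, as may those of the kallikreins and secretoglobins, so single values are uncertain. All 3 were also lower in barcodes of at least 500 genes (−1.92 to −1.76). The median of all genes was −1.44 there and 71.4% were at least 2-fold lower, so these values lay near those of most genes. Over all barcodes the Dcpp RNAs were scarcer in members than in the surrounding barcodes although they are saliva products.

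Among acinar secretory products, 13 genes had at least 10 UMIs over both, and their median ratio was 0.44. At least 2-fold higher were Smgc, Prol1 (1.18) and Car6 (1.04), and at least 2-fold lower were the Dcpp genes and Bpifa2 (−2.54). Over all genes 3.01% were higher and 17.4% lower. Prol1 was at 33436 CPM against 14758 CPM, and Car6 at 21433 CPM against 10451 CPM. Pip, the prolactin-inducible protein, was at 0.67, Lpo, the lactoperoxidase gene, at 0.64 and Mucl2 at 0.09. In barcodes of at least 500 genes the median was 1.20 and 7 of 13 were at least 2-fold higher, beside 2.03% of all genes. Mucl2 was at 0.98 there, with a median share of 49.9% of UMIs in members against 16.3% in others, and at −0.02 over all barcodes without the 10 deepest members.

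The secretory transcription factors had a median of 0.71 over 9 genes. Etv1 and Creb3l1 (1.39) were at least 2-fold higher and none was 2-fold lower, beside 3.01% and 17.4% of all genes. Elf5, an ETS-family factor, was at 0.98, Barx2 at 0.71, Foxc1 at 0.62 and Spdef, a factor of mucous cells, at −0.05. In barcodes of at least 500 genes Creb3l1 was at 2.49 and Etv1 at 2.08, while Nfib was at −1.33.

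Fluid secretion transporters had a median of 0.47 over 15 genes, with 3 at least 2-fold higher, beside 3.01% of all genes. The 3 were Ano1 at 1.85 (19.4 against 4.67 CPM), Kcnma1, a large-conductance potassium channel, at 1.03 and Kcnn4 at 1.00 (146 against 72.4 CPM). Kcnn4 and the claudin gene Cldn10, at 0.64, were higher still in barcodes of at least 500 genes, at 1.48 and 1.65, while Ano1 was at 1.18 and Kcnma1 at 0.07 there, and the list median was −0.27. The sodium pump subunit Atp1b1 was at 0.47 and Fxyd3, a regulator of that pump, at 0.21. Atp1b3, a further pump subunit, and Lrrc8a, of the volume-regulated anion channel, were at −1.16 and −1.11.

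Receptors and calcium signalling genes had a median of −0.10 over 19 genes. Adrb1, the beta-adrenergic receptor that triggers protein release, was 2-fold higher at 1.08 (21.4 against 9.63 CPM). Atp2a3 was at 0.98 (108 against 54.6 CPM) and the purinergic receptor gene P2rx4 at 0.81. Genes of the inositol trisphosphate receptors, Itpr1, Itpr2 and Itpr3, were at −0.01, −0.93 and −0.18. In the barcodes of at least 500 genes none of the 19 was 2-fold higher and 11 were 2-fold lower, beside 2.03% and 71.4% of all genes and a median of −1.44.

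The ER lists lay close to 0. Translocation and N-glycosylation genes had a median of −0.02 over 27 genes, with Tram1 as the only gene past 2-fold. Over all genes 3.01% were higher, so 1 of 27 is near that share. Ssr3, a translocon subunit, was at 0.71, and Sec61a1, the channel itself, at 0.61. Folding and unfolded protein response genes had a median of 0.00 over 27 genes, with Ern1, the stress sensor IRE1, at 1.22 (35 UMIs against 13) and Ddit3, a factor of unresolved stress, at −1.57. Derl3, of ER-associated degradation, and the co-chaperone gene Dnajc3 were each at 0.89, Xbp1 was at 0.64 and the chaperone gene Hspa5 at −0.45. Both medians lay above that of all genes as reported. Granule exocytosis genes had a median of −0.24 over 13 genes. Rab26 and Rab3d, small GTPases of secretory granules, were at 1.23 and 1.21, and Stx4a and Snap23, of the membrane fusion machinery, were lower at −1.49 and −1.23.

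**Figure D5:**
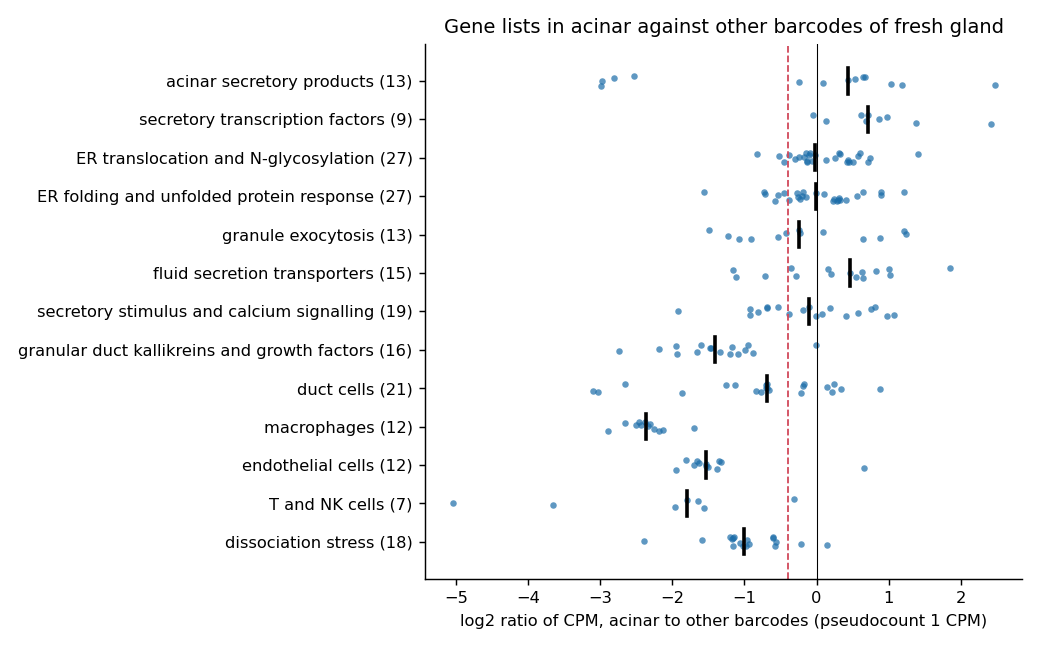
Log2 ratio of CPM (pseudocount of 1 CPM) of members to other tissue barcodes for the genes of 13 lists, 1 point per gene, with the number of genes in brackets, a bar at each list's median and a dashed line at the median of all genes (−0.39). Secretory transcription factors (0.71) and fluid secretion transporters (0.47) lie to the right of that line, and macrophage genes (−2.36) to its left.

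Genes of other cell types were lower in the members but were not at 0. The counts of lower genes below stand beside 17.4% of all genes. All 12 macrophage genes with at least 10 UMIs were at least 2-fold lower (median −2.36), their summed level being 650 CPM in members, 3352 CPM in others and 159 CPM in barcodes under 200 genes. Of 12 endothelial genes 11 were at least 2-fold lower (median −1.53, summed 471 against 1382 CPM, and 55.5 CPM under 200 genes). T and NK cell genes had a median of −1.80 over 7 genes, or −1.75 with the gene at 0 put at the floor, and were summed at 11.9 against 115 CPM. Kallikreins and growth factors of the granular duct had a median of −1.41, with 12 of 16 at least 2-fold lower, and Klk1 was at −0.88. The 5 kallikrein-rich members held 15230 of the members' 22316 Klk1 UMIs. In the 138 remaining members Klk1 was at 1767 CPM, against 11913 CPM in the other barcodes. Duct genes had a median of −0.69, with 6 of 21 at least 2-fold lower beside 17.4% of all genes, and Ehf at 0.88. Among the 6 were Lcn2 (0 UMIs against 26, at least 8.73-fold lower), Foxi1 (−3.03) and Ascl3 (−2.66), known markers of ionocytes of the ducts. Dissociation stress genes had a median of −1.0, with 9 of 18 at least 2-fold lower, Fos at −1.16 and Jun at −0.58. B cell (Ighm −2.09) and Schwann cell (Mbp −0.19) lists each rested on 1 gene, as did that of fibroblasts (Dcn 1.27), where 85.3% of the members' Dcn UMIs came from 1 barcode. The part that other cells' RNA in the members has in these ratios was not tested. In the 11 members with all 5 markers C1qa and Plvap were at 0.

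Stem and progenitor genes named for this gland had a median of 0.47 over 7 genes. Cd44 was at 1.24 (27.0 against 10.8 CPM), Sox9 at 0.93, Kit at 0.57, Cd24a at 0.17 and Itgb1 at −0.92. In barcodes of at least 500 genes the median was −0.46, with 0 of 7 at least 2-fold higher and 2 lower. Over all genes there, the median was −1.44, with 2.03% higher and 71.4% lower. Cd44 was at 0.69 and Kit at −0.40 in those barcodes. Of the 174 Sox9 UMIs in the members, 52 were in the 12 Smgc-rich barcodes, and without them the Sox9 ratio was 0.49. Basal and myoepithelial genes had a median of −0.62 over 5, with Cald1 at 1.32, Krt14 at −0.12 and Acta2 at −0.78. Cycling genes had a median of −0.89 over 7, with Top2a at 18 UMIs in the members, 66.7% of them from 1 barcode. Red blood cell genes were lower, with a median of −2.15. Ribosomal protein genes had a median of −0.72 over 76 and mitochondrially encoded genes 0.20 over 13.

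The same rule was then applied to the mSGO libraries. It was met by 54 of 7084 barcodes within the limits in untreated 7-day mSGOs (0.762%, 0.573 to 0.993), by 67 of 18958 after photons (0.353%, 0.274 to 0.449), by 59 of 18415 after protons (0.320%, 0.244 to 0.413) and by 1539 of 12665 in 11-day mSGOs (12.2%, 11.6 to 12.7), beside 18.5% in tissue. Median depths differed, at 911, 1089, 988 and 2822 UMIs in the mSGO libraries and 2434 in tissue. Thinned to 1000 UMIs, the shares were 0.104, 0.0677, 0.0227 and 2.20% in the mSGO libraries and 3.71% in tissue. The 11-day library may also differ from the others in animals and run, so culture time, animals and run cannot be told apart.

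In the mSGO barcodes that met the rule, Bhlha15 was rare and the main secretory products were at 0. Some other genes of secretory cells were counted, also in barcodes outside the rule. Bhlha15 was counted in 0, 1, 1 and 1 barcodes of the untreated, photon, proton and 11-day libraries, while 168 tissue barcodes within the limits held it. In 11-day mSGOs the rule was carried by Clcn3 (1257 of 1539), Chrm3 (1109) and Slc12a2 (741), and Aqp5 was present in 177. Chrm3 was at 334 CPM there against 12.2 CPM in the tissue members, both levels of a rule marker in barcodes that the rule chose. Mucl2, Smgc, Car6, Prol1 and Scgb1b27 had 0 UMIs in the barcodes of the rule in all 4 mSGO libraries, whereas Mucl2 alone was at 526596 CPM in the tissue members. Etv1 had 21 UMIs (3.17 CPM) at 11 days and 0 or 1 in the 7-day libraries, Creb3l1 0 to 3 UMIs and Atp2a3 0 to 6 UMIs. Ano1 was at 123 CPM at 11 days and 11.7 to 23.5 CPM in the 7-day libraries, beside 19.4 CPM in tissue. Aqp5, also a rule marker, was at 218 CPM (182 to 259) in the rule barcodes of untreated 7-day mSGOs, where 46 of 54 held it. It was at 287 CPM in the tissue members and at 32.5 to 69.9 CPM in the rule barcodes of the other mSGO libraries. The rule raised these Aqp5 levels, and outside it Aqp5 was at 23.1 CPM in untreated 7-day mSGOs. Srpr was at 84.4 to 159 CPM and Tram1 at 74.6 to 89.6 CPM. Barcodes outside the rule held these genes too. In untreated 7-day mSGOs Ano1 was at 11.7 CPM in the rule barcodes and 9.26 CPM outside the rule, Srpr at 124 and 89.0 CPM, and Tram1 at 80.4 and 51.8 CPM. The duct keratin Krt7 was at 1083 to 1531 CPM and the basal keratin Krt14 at 1173 to 5108 CPM, against 32.2 and 6.09 CPM in the tissue members. Both keratins were also counted outside the rule in those libraries, with Krt7 at 841 to 1058 CPM and Krt14 at 1644 to 6034 CPM.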

How the data were processed

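scRNA-seq libraries were made with 10x Genomics 3′ chemistry from sorted propidium iodide-negative cells, 1 library per group, grouped by the sample labels. For each library the authors deposited raw counts of UMIs per gene and cell barcode, without normalization. The labels' processing notes name Cell Ranger 5 and mm10, the file headers name software version 3.0.1 (7-day and tissue) and 7.0.0 (11-day), and the study's methods name GRCm39. The study's methods exclude cells with over 5% mitochondrial counts or under 2500 features. As written this left 26 of 13547 tissue barcodes, and with 2500 genes read as a maximum it left 11582, of which 1392 had at least 200 genes. The limits used here were at least 200 genes and at most 10% mitochondrial UMIs, and no UMI total under 500 was present in the tissue matrix.

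Summed counts per set of barcodes were scaled to CPM with a pseudocount of 1, and ratios were called at 2-fold over genes with at least 50 UMIs (10 for list members). No test was run, since cells of 1 library are not replicates and members were chosen from the same counts. Intervals were exact (Poisson, binomial or Clopper-Pearson, 95%). The total count was 19792416 UMIs in the tissue library, 6877906 of them within the limits. The members, lists and cuts were chosen with earlier results of these data known.

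Genes named were the rule markers, those the study names for acinar or pro-acinar cells, the 10 highest and 10 lowest ratios (at least 100 UMIs over both and 50 CPM in the higher), and up to 4 members per list. Other genes named were chosen after their values were seen, as were the subsets by detected genes, Smgc, kallikreins, Mucl2 and marker number. Alternatives covered limits, markers, classes, scaling, pseudocount, filter, depth and doublets. Scrublet called 0 doublets at an expected 1.24%, so removing its calls left the barcodes as they were, and the reason was not tested. The 19 highest scores were left out instead in an alternative added after seeing the data. Scripts were tested on simulated data. Promoter windows came from RefSeq (GRCm38.p6). Tools were python 3.11.15, numpy 2.4.6, scipy 1.17.1, pandas 2.3.3, scanpy 1.11.5, anndata 0.12.19 and matplotlib 3.10.9. Single results of some genes in the lists are not reported here.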

Additional observations from a re-analysis of the deposited data

How the results depend on the processing

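No paired analysis was possible because each group holds 1 library. Every statement rests on summed counts of 1 library, so no spread between replicates limits it, and depth limits Chrm3, Bhlha15 in the organoids and the rarer list members most. The cause of the moves below was not tested.

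The 287 members became 155 with at least 500 genes, 114 with at least 1000 genes, 105 with at least 3 markers, 143 without Slc12a2 among the markers and 190 without barcodes of the immune, endothelial and duct classes.

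The 148 genes at least 2-fold higher became 89 at a mitochondrial limit of 5%, 82 with at least 500 genes, 87 with at least 1000 genes, 91 without Slc12a2, 258 without immune- and endothelial-class barcodes, 36 with a pseudocount of 10 CPM, 593 with secretory products and kallikreins left out of the totals, 418 under median-of-ratios scaling, 450 with the mean of the barcodes' own CPM, 51 after thinning, 38 with at least 200 UMIs, 387 with at least 10 UMIs and 341 without the 10 deepest members. The 856 at least 2-fold lower became, at 500 and 1000 genes, 2886 and 2825. They became 1558 with at least 3 markers, 1475 without Clcn3, 1535 without Slc12a2, 270 without immune- and endothelial-class barcodes, 328 without the duct class as well, 331 with a pseudocount of 10 CPM, 367, 428 and 173 under the 3 scalings in the order above, 83 after thinning, 281 with at least 200 UMIs, 1738 with at least 10 UMIs and 351 without the 10 deepest members.

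The median of secretory products (0.44) became 1.20 with at least 500 genes and 2.14 with at least 1000 genes. That of ER translocation and N-glycosylation (−0.02) became −0.52 and −0.72 with those limits, −0.21 without Clcn3 and 0.50 with secretory products left out of the totals. That of fluid secretion transporters (0.47) became −0.47 with at least 1000 genes, 1.00 with secretory products left out and 0.88 under median-of-ratios scaling.

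Signs changed in 47 of 414 values of lists and in 113 of 1674 values of named genes, those near 0 included. Fibroblast genes, which were Dcn alone, went to −3.06 with at least 3 markers and −3.13 without Slc12a2. Dissociation stress genes went to 0.10 after thinning, as did Ddit3, while Atp1b3 went to 0.26 and Cdk1 to 0.67. With at least 500 genes the nuclear retained list and Kcnq1ot1 went to −0.094, with at least 1000 genes Cald1 went to −0.013, with the mean of the barcodes' own CPM Emcn went to 0.038, and without the Smgc-rich members Smgc went to −0.38. Over 56 named genes past 2-fold, 1041 of 1050 values under the alternatives kept their sign.

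The organoid shares moved with the limits, the markers and depth. Untreated 7-day mSGOs went to 1.90% and 2.92% with at least 500 and 1000 genes, 0.0847% with at least 3 markers, 0.212% without Clcn3, 0.551% without Slc12a2 and 0.104% after thinning. Photon mSGOs went to 0.555%, 2.54%, 0.0105%, 0.0475%, 0.164% and 0.0677% in the same order, and to 0.273% at a mitochondrial limit of 5%. Proton mSGOs went to 0.614%, 2.43%, 0.0217%, 0.0652%, 0.141% and 0.0227%. The 11-day mSGOs went to 12.96% at a mitochondrial limit of 5%, 13.8% with at least 1000 genes, 1.59% with at least 3 markers, 3.76% without Clcn3, 7.76% without Slc12a2 and 2.20% after thinning. Leaving out the 19 highest doublet scores removed 5 members, 1 of them Smgc-rich, and moved no count of members or genes by over 1.5 times.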
